A study of Mus musculus with 24 samples.

Results

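The keratin gene family was taken as every gene of the RNA table whose symbol is Krt followed directly by a digit and whose type is protein-coding. This gave 54 of 54838 mouse genes, 28 of type I and 26 of type II, and left out the pseudogene Krt8-ps. RNA was read in 20 libraries made from organoids of the mouse ventral prostate, that is, small epithelial cultures that grow from single cells in Matrigel, a gel of basement membrane proteins. One genotype is named Tmprss2-ERG and is called T-ERG here, and the genotype named Tmprss2-fl/fl-ERG was called control by the submitters. Both names hold Tmprss2, an androgen-regulated protease gene of the prostate, and ERG, a transcription factor of the ETS family, and whether the Tmprss2 locus of control is unmodified cannot be read from them. The labels' protocols give a mouse age of 4 months, 3000 seeded cells per gel dome of 30 µL and 1 library per dome. Each genotype had 2 organoid clones as biological replicates and 5 domes per clone as technical replicates, which makes 10 libraries per genotype. The sources used here do not say whether the clones came from separate mice, so the p-values cover only the spread seen among these clones or domes. Another 4 libraries, of whole-genome DNA, were not used here.

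Keratins form the intermediate filaments of epithelial cells. Each filament is built from pairs of 1 type I (acidic) and 1 type II (basic) protein, so a cell needs both types, and the pair in use tells the kind of epithelium. Krt8 and Krt18 are the pair of simple and luminal epithelium, Krt5 and Krt14 that of basal cells, Krt4 and Krt13 that of internal stratified epithelium such as the oesophagus, and Krt1 and Krt10 that of the outer epidermis. Krt6 with Krt16 or Krt17 is induced by wounding and fast growth in skin. In the normal prostate, basal cells carry Krt5 and Krt14 and luminal cells carry Krt8 and Krt18.

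The levels are FPKM, a fragment count divided by the length of the transcript and by the library's mapped fragments, recovered from the deposited log2(FPKM + 1). They are scaled to length, and how closely they can be compared between different genes was not tested. FPKM totals were between 728255 and 794589 per library, 11829 to 12184 genes were at 1 FPKM or more, and libraries of 1 clone correlated at 0.959 to 0.970 across genes. The cultures were epithelial by the markers Epcam (111 to 256 FPKM in T-ERG, 163 to 454 FPKM in control) and Cdh1. The basal factor Trp63 was at 57.5 FPKM or more in every library. Pbsn, a defining gene of secretory luminal cells, was at 0 FPKM in every library. Markers of stroma, endothelium and neuroendocrine cells summed to at most 1.33, 0.64 and 0.25 FPKM in a library. The leukocyte gene Ptprc was at 0 throughout, while Cd68 was at 0.67 to 5.89 FPKM in T-ERG and 4.34 to 12.2 FPKM in control. In bulk RNA, fewer cells of a type and less RNA per cell cannot be told apart.

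The family lies in 2 clusters. All 26 type II genes and the type I gene Krt18 are within 0.684 Mb on chromosome 15, and the other 27 type I genes are within 1.04 Mb on chromosome 11 (GRCm38.p6, RefSeq). The 250 bases before the RefSeq start of 6 expressed members are shown because they differ by epithelial role: Krt5 is basal, Krt13 stratified, and Krt20, Krt7, Krt8 and Krt18 simple. They read 5′ to 3′ on the gene's strand. Capitals mark the letters TATAAA or ATAAAA (gene strand), GGAAGT or ACTTCC (an ETS-type core, both strands) and GGGCGG or CCGCCC (GC box, both strands).
Krt5 (chr15:101712906-101713155, minus strand): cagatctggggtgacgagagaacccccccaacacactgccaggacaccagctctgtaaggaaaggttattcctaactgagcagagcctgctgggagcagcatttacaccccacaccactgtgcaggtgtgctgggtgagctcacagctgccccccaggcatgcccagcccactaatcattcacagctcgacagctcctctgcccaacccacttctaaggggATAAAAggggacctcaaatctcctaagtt
Krt13 (chr11:100121567-100121816, minus strand): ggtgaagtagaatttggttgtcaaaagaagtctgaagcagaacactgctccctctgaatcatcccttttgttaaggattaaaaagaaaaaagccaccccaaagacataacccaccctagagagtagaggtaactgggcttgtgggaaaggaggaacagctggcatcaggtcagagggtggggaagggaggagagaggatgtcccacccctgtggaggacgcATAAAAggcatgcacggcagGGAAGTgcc
Krt20 (chr11:99438154-99438403, minus strand): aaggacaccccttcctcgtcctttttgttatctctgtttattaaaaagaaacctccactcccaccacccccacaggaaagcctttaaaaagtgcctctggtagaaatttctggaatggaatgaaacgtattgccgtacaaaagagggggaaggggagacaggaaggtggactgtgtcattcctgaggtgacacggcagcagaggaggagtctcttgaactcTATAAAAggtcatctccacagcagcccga
Krt7 (chr15:101412153-101412402, plus strand): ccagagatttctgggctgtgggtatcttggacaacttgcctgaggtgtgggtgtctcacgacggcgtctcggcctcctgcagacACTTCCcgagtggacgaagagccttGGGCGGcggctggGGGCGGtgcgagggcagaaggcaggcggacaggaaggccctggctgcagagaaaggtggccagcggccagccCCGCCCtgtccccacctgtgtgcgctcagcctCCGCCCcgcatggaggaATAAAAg
Krt8 (chr15:102004343-102004592, minus strand): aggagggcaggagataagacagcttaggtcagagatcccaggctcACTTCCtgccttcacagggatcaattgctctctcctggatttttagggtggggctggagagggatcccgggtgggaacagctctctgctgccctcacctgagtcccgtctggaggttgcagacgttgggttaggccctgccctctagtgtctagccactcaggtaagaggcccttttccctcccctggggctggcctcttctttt
Krt18 (chr15:102027966-102028215, plus strand): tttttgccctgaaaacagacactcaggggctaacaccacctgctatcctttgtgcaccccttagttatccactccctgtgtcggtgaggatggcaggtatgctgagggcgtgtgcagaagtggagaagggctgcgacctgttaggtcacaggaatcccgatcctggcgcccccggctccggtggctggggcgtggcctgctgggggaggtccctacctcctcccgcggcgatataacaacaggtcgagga

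Krt5 and Krt13 both hold ATAAAA starting 29 bases before the start, and Krt20 holds TATAAA at the same 29 bases. Krt7 holds 4 GC boxes, at 141, 128, 56 and 24 bases, and an ATAAAA only 7 bases before its start. Neither Krt8 nor Krt18 holds TATAAA or ATAAAA in this window, and Krt18 holds none of the words searched, though it has the shorter run TATAA. The ETS-type core was at 9 bases in Krt13, 166 bases in Krt7 and 205 bases in Krt8. Among 29 keratin promoters whose window adjoins the RefSeq start, TATAAA was in 13 (44.8%) and ATAAAA, which overlaps it, in 15 (51.7%), against 9.39% and 12.6% of 19827 promoters of the same length. The ETS-type core was in 6 of the 29 (20.7%), against 19.3% of all promoters, and the GC box in 2 (6.90%), against 26.8%. The AP-1 word TGACTCA or its reverse TGAGTCA was in 0 of the 29, against 4.86% of all promoters. The words are matches of letters, ATAAAA was added after the sequences were seen, and 20 of the 29 promoters belong to members too low to test.

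In the RNA, Krt14, Krt5 and Krt15 were the 3rd, 4th and 5th most abundant of 12899 tested genes by mean FPKM. All keratins together held 5.75% of the FPKM of T-ERG libraries (5.52% to 5.91%) and 4.90% of that of control libraries (4.13% to 5.99%). The T-ERG clones held like shares, 5.77% ± 0.150 in clone 2 and 5.74% ± 0.121 in clone 1 (SD, n = 5 libraries each). The control clones did not, with 4.17% ± 0.033 in clone 2 and 5.63% ± 0.230 in clone 1. The higher mean of T-ERG therefore rests on control clone 2. Type I exceeded type II in every library, by 1.18 times in T-ERG clone 2, 1.41 times in T-ERG clone 1, 1.37 times in control clone 2 and 1.42 times in control clone 1. Without Krt6a and Krt6b, whose reads are hard to split, the ratio was 1.98 in T-ERG and 1.80 in control. Both are type II, so leaving them out can only raise the ratio, and a wrong split between them would not change it. The 7 most abundant members, Krt14, Krt5, Krt15, Krt6a, Krt19, Krt4 and Krt13, held 83.1% of keratin FPKM in T-ERG and 91.1% in control.

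**Figure D1:**
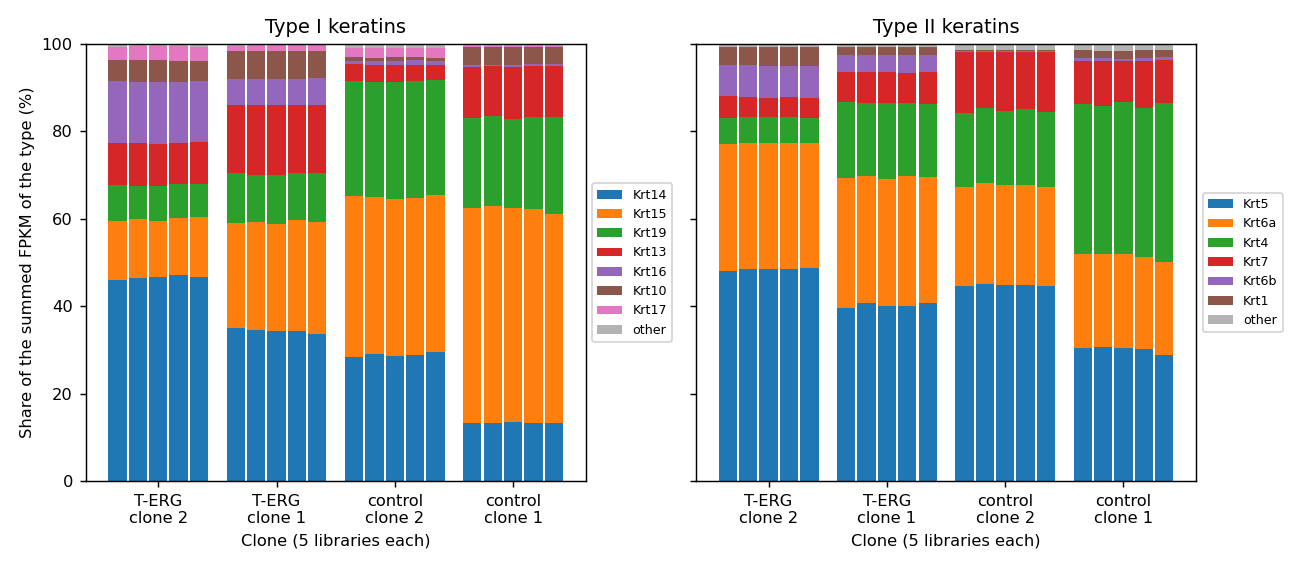
Share of each keratin in the summed FPKM of its type (percent, vertical axis), 1 bar per library, 5 libraries for each of 4 clones; type I at left, type II at right. Krt14 is the largest type I share in both T-ERG clones and Krt15 in both control clones, while Krt16 and Krt6b are visible bands in T-ERG and thin lines in control.

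The make-up of the type I pool differed more than its size. Krt14 took 46.6% ± 0.437 of type I FPKM in T-ERG clone 2 and 34.4% ± 0.538 in T-ERG clone 1, against 29.0% ± 0.466 in control clone 2 and 13.4% ± 0.139 in control clone 1 (SD, n = 5 libraries). Krt15 went the other way. It took 13.3% and 24.9% in those T-ERG clones, against 36.0% and 48.9% in those control clones. Krt16 took 14.0% and 6.00% in T-ERG and 0.872% and 0.426% in control. In the type II pool, Krt5 was first in T-ERG, with 48.5% in clone 2 and 40.2% in clone 1, and in control clone 2, with 44.8%, whereas in control clone 1 Krt4 took 34.7% and Krt5 30.1%. Krt6a stayed near the same share within each genotype, at 28.9% and 29.2% in the T-ERG clones and 22.8% and 21.3% in the control clones.

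The genotypes were compared with limma on 4 clone means of log2(FPKM + 1), and the 2 clones of each genotype on single libraries, over all 12899 genes with at least 1 FPKM in at least 5 libraries. Of the 54 keratins, 23 entered these tests. No keratin passed the genotype test at a Benjamini-Hochberg adjusted p under 0.05 (0% of all genes passed higher and 0% lower), and the smallest limma adjusted p of any gene was 0.281. At an unadjusted limma p under 0.05 there were 10 keratins, against 8.44% of all genes. For 10 keratins both clones of T-ERG had means above those of both control clones, and for 5 both were below, against 21.7% and 23.2% of all tested genes. For 8 keratins every T-ERG library was above every control library, namely Krt14, Krt5, Krt6a, Krt16, Krt10, Krt6b, Krt20 and Krt36 (2.50% of all genes), and for 2, Krt19 and Krt7, every one was below (3.70% of all genes). Krt36 passed the filter on low values through T-ERG, as did Krt12 among the 10, and at a mean of at least 5 FPKM the counts above control were 8 for clone means and 7 for libraries. With 1 clone left out such counts can only stay or rise, since members already apart stay apart. The count of keratins with all T-ERG libraries above was then 9 to 12. The count below was 6 without T-ERG clone 1, 4 without T-ERG clone 2, 7 without control clone 2 and 4 without control clone 1. These counts are therefore no measure of dependence on a clone, and the shares of all genes in these settings are not given here. The median keratin difference, T-ERG minus control, was 0.62 log2 units, against 0.0068 over all tested genes, and was 0.22 with control clone 2 left out, 0.30 with T-ERG clone 2 left out and 0.30 with a pseudocount of 5. The median size of the difference was 0.91 for keratins and 0.24 for all genes.

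Keratins also differed between clones of 1 genotype. Between the T-ERG clones, 12 keratins rose and 9 fell in clone 2 (limma adjusted p under 0.05), against 17.5% and 14.4% of all genes. Between the control clones, 6 rose and 12 fell in clone 2, against 26.7% and 13.8% of all genes. The split over all genes depended on scaling. In T-ERG it was 2251 higher and 1854 lower as deposited and 1894 higher and 2168 lower after median centring, while that of keratins was 12 and 9 under both. In control it was 3446 higher and 1777 lower as deposited and 2584 higher and 2377 lower after median centring. For control keratins it was then 5 higher and 12 lower. The median size of the clone difference was 0.63 log2 units for keratins in T-ERG, against 0.23 for all genes, and 0.90 in control, against 0.27. Of the members, 13 passed in the same direction in both genotypes and 4 in opposite directions, against 14.6% and 5.0% of all genes. The p-values of these clone tests measure the spread between domes.

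**Figure D2:**
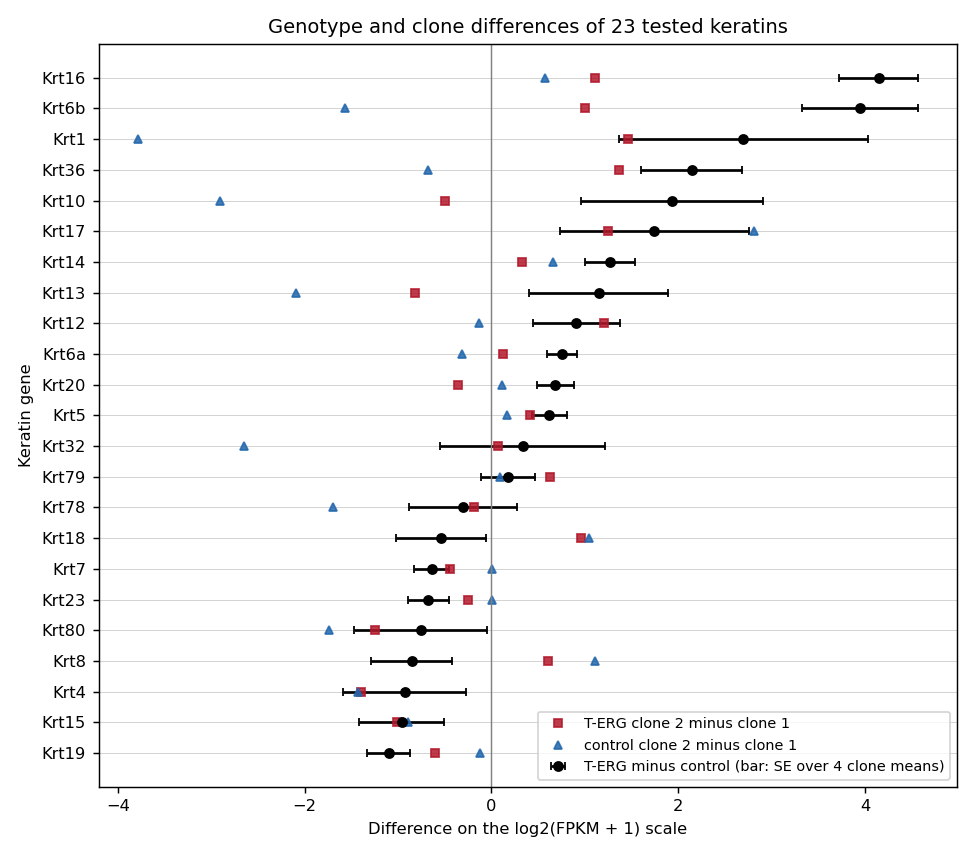
Difference of each of the 23 tested keratins on the log2(FPKM + 1) scale (horizontal axis). Black points are T-ERG minus control with the SE over 4 clone means, red squares are clone 2 minus clone 1 in T-ERG and blue triangles the same in control; the genotype differences run from 4.15 for Krt16 to -1.10 for Krt19, and the control clones lie 3.79 apart for Krt1.

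Of the basal-layer keratins, Krt14 and Krt5 were higher in T-ERG and Krt15 was lower. Krt14 (chr11:100203162-100207510), the type I partner of basal cells, was at 8727, 10025 and 11221 FPKM in T-ERG libraries (lowest, median and highest), against 3094, 4287 and 5292 FPKM in control libraries. The groups were far apart, and the difference was 1.27 ± 0.26 log2 units (SE, 2 clones per genotype, 95% interval 0.58 to 1.97, limma adjusted p = 0.574). Krt5 (chr15:101707069-101712905), its type II partner, was at 7009, 8629 and 9895 FPKM in T-ERG, against 4801, 5639 and 5874 FPKM in control. Its groups were also apart, with a smaller difference of 0.62 ± 0.18 (limma adjusted p = 0.574). Both were higher in clone 2 of each genotype, Krt14 by 0.33 in T-ERG and 0.66 in control, and Krt5 by 0.41 and 0.16 (limma adjusted p at most 0.000185). These clone calls depended on scaling: quantile normalization turned the T-ERG value of Krt14 to -0.08, and median centring took the control value of Krt5 to 0.07 (limma adjusted p = 0.0758).

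Krt15 (chr11:100131759-100135949), a type I keratin of basal cells and of hair follicle stem cells, ran against Krt14. It was at 3219, 3216, 3075, 3086 and 3321 FPKM in T-ERG clone 2 and 6212, 6440, 6234, 6418 and 6829 FPKM in T-ERG clone 1. In control clone 2 it was at 6647, 6340, 6478, 6359 and 6401 FPKM, and in control clone 1 at 11942, 12824, 11635, 12732 and 10961 FPKM. T-ERG clone 1 and control clone 2 therefore overlapped at about the same level, with T-ERG clone 2 below and control clone 1 above. The genotype difference was -0.96 ± 0.46 (limma adjusted p = 0.574), and ranged from -1.47 to -0.45 with 1 T-ERG clone left out. Krt15 fell in clone 2 of both genotypes, by 1.01 in T-ERG and by 0.90 in control (limma adjusted p = 4.5e-14 and 1.3e-13).

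Krt16 and Krt6b, of the keratins of wounded and fast-growing skin, had the 2 largest genotype differences of the family, and neither passed. Krt16 (chr11:100246091-100248902) was at 3355, 3372, 3404, 3277 and 3327 FPKM in T-ERG clone 2 and 1540, 1538, 1527, 1518 and 1624 FPKM in T-ERG clone 1. It was at 151, 151, 159, 166 and 152 FPKM in control clone 2 and 107, 106, 103, 109 and 99.1 FPKM in control clone 1. Every T-ERG library was above every control library, and clone 2 was above clone 1 in both genotypes, by 1.11 in T-ERG and 0.57 in control (limma adjusted p = 8.3e-16 and 1.1e-11). The genotype difference, 4.15 ± 0.43, was the 4th largest of all tested genes by size and did not pass (95% interval 3.03 to 5.26, limma adjusted p = 0.400).

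Krt6b (chr15:101676023-101680293), a type II partner of Krt16, was at 1432, 1443, 1490, 1477 and 1420 FPKM in T-ERG clone 2 and 688, 746, 739, 735 and 730 FPKM in T-ERG clone 1. It was at 40.4, 35.2, 37.0, 38.9 and 37.8 FPKM in control clone 2 and 113, 119, 109, 119 and 110 FPKM in control clone 1. The genotypes did not overlap (3.95 ± 0.62, limma adjusted p = 0.506), but the clones ran in opposite directions: it rose by 1.00 in T-ERG clone 2 and fell by 1.57 in control clone 2 (limma adjusted p = 4.9e-14 and 1.6e-17). Its neighbour Krt6a (chr15:101689928-101694305), nearly identical in sequence, was abundant in all libraries, at 5222, 5545 and 5913 FPKM in T-ERG, against 2928, 3286 and 3815 FPKM in control. The genotypes were apart for Krt6a as well, by 0.75 ± 0.16 (limma adjusted p = 0.574). Since reads of the copies can be assigned to either, the split between Krt6a and Krt6b is uncertain.

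Krt17 (chr11:100256215-100261029), a type I keratin of hair follicles and of injured epidermis, differed between clones in both genotypes. It was at 747, 748, 758, 793 and 772 FPKM in T-ERG clone 2, 318, 322, 318, 327 and 324 FPKM in T-ERG clone 1, 396, 395, 388, 384 and 395 FPKM in control clone 2, and 58.7, 58.9, 53.5, 50.3 and 54.3 FPKM in control clone 1. Control clone 2 was above T-ERG clone 1, so the genotypes overlapped (1.74 ± 1.01, limma adjusted p = 0.586). The difference was 0.34 without control clone 1 and 3.15 without control clone 2. It rose in clone 2 by 1.24 in T-ERG and 2.81 in control (limma adjusted p = 1.0e-15 and 9.7e-22). All 4 stress keratins had a positive genotype difference, and 0 passed. Their median was 2.85, against 0.0068 over all tested genes.

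**Figure D3:**
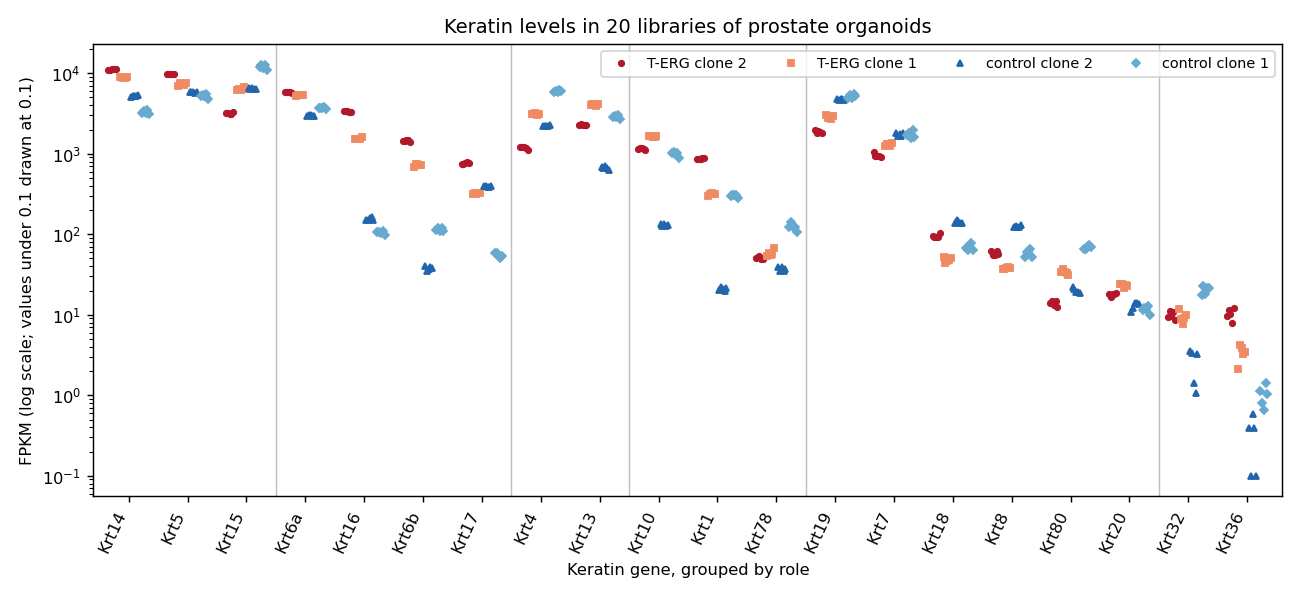
FPKM of the 20 keratins with a clone mean of at least 10 FPKM in at least 1 clone (log scale, values under 0.1 drawn at 0.1), 1 point per library, 5 libraries per clone, genes grouped by role between grey lines. Krt16 and Krt6b are above all control libraries in both T-ERG clones; Krt15, Krt4, Krt13 and Krt17 overlap between genotypes and differ between clones.

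Of the internal stratified keratins, Krt4 (chr15:101918535-101924735), also used as a marker of luminal progenitor cells of the mouse prostate, was at 1203, 1207, 1203, 1187 and 1128 FPKM in T-ERG clone 2 and 3074, 3136, 3200, 3019 and 3132 FPKM in T-ERG clone 1. It was at 2197, 2238, 2220, 2235 and 2268 FPKM in control clone 2 and 5795, 6010, 5910, 6196 and 6085 FPKM in control clone 1. Clone 2 was the lower clone in both genotypes by nearly the same amount, -1.39 ± 0.02 in T-ERG and -1.43 ± 0.02 in control (SE, limma adjusted p = 2.0e-19 and 3.8e-20). The genotype difference was -0.93 ± 0.66 (limma adjusted p = 0.633), and was -0.22 without control clone 1 and -1.64 without control clone 2. Its partner Krt13 (chr11:100117327-100121566) had 2253, 3134 and 4175 FPKM in T-ERG, against 633, 1687 and 3017 FPKM in control. The groups overlapped, because control clone 1 at a mean of 2857 FPKM was above T-ERG clone 2 at 2298 FPKM. The genotype difference of Krt13 was 1.15 ± 0.75 (limma adjusted p = 0.608), and was 0.10 without control clone 2 and 2.20 without control clone 1. Krt13 fell in clone 2 by 0.82 in T-ERG and by 2.10 in control. Krt12, a keratin of the cornea, was at most 2.61 FPKM, and it entered the tests through the 5 libraries of T-ERG clone 2 and 1 of T-ERG clone 1.

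Of the suprabasal keratins, which epidermal cells switch on as they leave the basal layer, Krt10 and Krt1 were low in control clone 2. Krt10 (chr11:99385254-99397449) was at 1139, 1185, 1185, 1155 and 1125 FPKM in T-ERG clone 2 and 1641, 1659, 1610, 1627 and 1652 FPKM in T-ERG clone 1. It was at 135, 128, 135, 126 and 131 FPKM in control clone 2 and 1013, 1050, 995, 1018 and 887 FPKM in control clone 1. The genotypes were apart, narrowly for control clone 1, and the difference of 1.93 ± 0.97 (limma adjusted p = 0.577) was 0.47 without control clone 2.

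Krt1 (chr15:101845426-101850786), the type II partner of Krt10, was at 853, 866, 873, 874 and 878 FPKM in T-ERG clone 2 and 298, 313, 328, 316 and 314 FPKM in T-ERG clone 1. It was at 20.1, 22.0, 20.7, 19.8 and 21.3 FPKM in control clone 2 and 297, 304, 310, 307 and 279 FPKM in control clone 1. T-ERG clone 1 and control clone 1 overlapped, and the clone difference had opposite signs, 1.47 ± 0.04 in T-ERG and -3.79 ± 0.04 in control (SE, limma adjusted p = 4.6e-17 and 7.1e-24). The genotype difference was 2.70 ± 1.33 (limma adjusted p = 0.574) and was 0.80 without control clone 2. Krt78, found in the suprabasal cells of stratified epithelia, had 48.9 to 67.03 FPKM in T-ERG. This lay between control clone 2, at 35.0 to 39.0 FPKM, and control clone 1, at 106 to 141 FPKM. Krt78 fell by 1.70 in control clone 2 (limma adjusted p = 4.2e-14). Krt79, of the hair follicle opening in the mouse, was at 1.21 to 5.80 FPKM in T-ERG and 1.71 to 2.86 FPKM in control.

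Of the 7 simple-epithelial keratins, Krt19 and Krt7 were lower in all T-ERG libraries. In the whole group 6 of 7 differences were below 0, and 0 passed. The median was -0.68, against 0.0068 over all tested genes. Both T-ERG clone means were below both of control for 4 of the 7 and above for 1, against 23.2% and 21.7% of all genes. Of the 6, Krt80 was at 0.11 without control clone 1 and Krt18 at -0.014 without control clone 2. Krt19 (chr11:100140810-100145926), a short type I keratin of ducts, was at 1814, 2354 and 2986 FPKM in T-ERG, against 4651, 4853 and 5449 FPKM in control. Krt7 (chr15:101412403-101427806), a type II keratin of ducts and glands, was at 918, 1140 and 1370 FPKM in T-ERG, against 1582, 1733 and 1989 FPKM in control. For both genes all T-ERG libraries were below all control libraries, with differences of -1.10 ± 0.23 for Krt19 and -0.64 ± 0.18 for Krt7 (limma adjusted p = 0.574 for each). Both also fell in T-ERG clone 2, by 0.61 for Krt19 and by 0.44 for Krt7. In control, Krt19 fell by 0.12 in clone 2 as deposited and was at 0.10 after quantile normalization, and Krt7 differed by 0.0079 with a 95% interval of -0.10 to 0.12.

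The luminal pair Krt8 and Krt18 was low for keratins. Krt8 (chr15:101996711-102004342) was at 61.3, 55.0, 55.4, 61.3 and 57.1 FPKM in T-ERG clone 2, 36.9, 37.5, 37.9, 39.0 and 38.0 FPKM in T-ERG clone 1, 124, 127, 125, 124 and 130 FPKM in control clone 2, and 52.8, 60.02, 59.4, 66.5 and 52.4 FPKM in control clone 1. Krt18 (chr15:102028216-102032026) was at 96.1, 92.2, 92.6, 92.0 and 103 FPKM in T-ERG clone 2, 52.9, 44.5, 46.5, 48.1 and 51.0 FPKM in T-ERG clone 1, 138, 151, 148, 137 and 139 FPKM in control clone 2, and 68.0, 64.5, 69.99, 77.3 and 64.2 FPKM in control clone 1. Control clone 2 was highest for both genes, T-ERG clone 1 was lowest, and the genotypes overlapped. Clone 2 was higher in both genotypes, by 0.60 in T-ERG and 1.10 in control for Krt8 and by 0.96 and 1.04 for Krt18 (limma adjusted p at most 4.4e-08). The genotype differences were -0.85 ± 0.43 for Krt8 and -0.54 ± 0.48 for Krt18 (limma adjusted p = 0.577 and 0.690), and without control clone 2 they were -0.30 and -0.014. The pseudogene Krt8-ps, at 1.69 FPKM or less, may share reads with Krt8.

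Krt20 (chr11:99428385-99438153), a type I keratin of gut and bladder surface cells, was the 1 simple keratin with a positive genotype difference. It was at 16.6, 19.9 and 24.2 FPKM in T-ERG, against 10.1, 12.2 and 14.0 FPKM in control, with no overlap (0.68 ± 0.20, limma adjusted p = 0.574). Krt80 was at 12.3 to 37.1 FPKM in T-ERG and 18.6 to 73.6 FPKM in control, and fell in clone 2 of both genotypes, by 1.24 in T-ERG and by 1.74 in control. Krt23 was at 1.38 to 2.94 FPKM in T-ERG and 2.51 to 4.75 FPKM in control. Of the hair-shaft keratins, Krt36 was at 2.13 to 12.1 FPKM in T-ERG and 0 to 1.44 FPKM in control, so it passed the filter through T-ERG, and it differed by 2.14 ± 0.54 on the log2(FPKM + 1) scale (limma adjusted p = 0.574). Krt32 was at 7.76 to 11.7 FPKM in T-ERG, between control clone 2 (1.08 to 3.57 FPKM) and control clone 1 (17.4 to 22.9 FPKM). Krt32 fell by 2.66 in control clone 2. The genotype sign of 4 members turned when 1 clone was left out: Krt79, at 0.18 for all clones, was -0.14 without T-ERG clone 2; Krt80, at -0.76, was 0.11 and Krt78, at -0.30, was 0.54 without control clone 1; Krt32, at 0.33, was -0.99 without control clone 2.

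The other 31 keratins were too low to test, and 26 of the 54 were under 1 FPKM in every library. The highest values among the 31 were 2.08 FPKM for Krt84, 1.57 for Krt76, 1.28 for Krt42, 1.19 for Krt31 and 1.05 for Krt33a. Krt90, Krt77, Krt88, Krt2, Krt74, Krt35, Krt83, Krt75, Krt86, Krt87, Krt34, Krt33b, Krt9, Krt71 and Krt73 were between 0 and 0.67 FPKM. Krt72, Krt39, Krt222, Krt26, Krt24, Krt27, Krt82, Krt40, Krt81, Krt28 and Krt25, 11 genes in all, were at 0 in all 20 libraries. Thus none of the 9 keratins of the hair follicle sheath entered the tests, against 2 of the 15 of the hair shaft and all 7 simple, 3 basal-layer and 4 stress keratins.

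Of 13 textbook pairs, 9 had both partners above 0 in every library, and the balance of each was taken as log2 of type II FPKM over type I FPKM. These balances were described without a test. For Krt5 over Krt14 the mean was -0.19 in T-ERG clone 2, -0.27 in T-ERG clone 1, 0.17 in control clone 2 and 0.67 in control clone 1. Thus Krt14 had the higher FPKM of the pair in every T-ERG library and Krt5 in every control library. The sign was the other way round for Krt5 over Krt15, at 1.62 and 0.20 in those T-ERG clones and -0.14 and -1.20 in those control clones. By FPKM, the type I gene above Krt5 was thus Krt14 in T-ERG and Krt15 in control. The ratio of Krt5 to Krt14 was close to 1 in clone 2 of each genotype, at 0.88 in T-ERG and 1.13 in control. Whether FPKM compares that closely between genes was not tested.

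Krt4 over Krt13 was -0.96 in T-ERG clone 2 and -0.39 in T-ERG clone 1, against 1.74 in control clone 2 and 1.07 in control clone 1. Krt13 therefore had the higher FPKM in every T-ERG library and Krt4 in every control library. The summed Krt6a and Krt6b exceeded Krt16 by 2.18 times in T-ERG clone 2 and 3.92 times in T-ERG clone 1, against 19.3 times in control clone 2 and 36.4 times in control clone 1. This balance had the widest range over libraries of the 9 pairs, 4.12 log2 units. Krt6a, the larger part of that sum, differed by 0.75 between genotypes, against 4.15 for Krt16.

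Krt7 over Krt19 and Krt8 over Krt18 had the narrowest ranges, 0.74 and 0.75 log2 units over the 20 libraries. Krt7 over Krt19 was -0.97 in T-ERG clone 2 and -1.14 in T-ERG clone 1, against -1.45 in control clone 2 and -1.58 in control clone 1, with no overlap between genotypes. Krt8 over Krt18 was -0.71, -0.36, -0.18 and -0.24 in the same order of clones, and the genotypes overlapped. Between clones, Krt8 and Krt18 each differed by 0.60 to 1.10 log2 units, while their balance differed by -0.36 in T-ERG and 0.06 in control. Krt8 over Krt20 was 1.70 and 0.71 in T-ERG clones 2 and 1, against 3.30 and 2.31 in control clones 2 and 1. Krt1 over Krt10, from -2.75 to -0.36, and the summed Krt6a and Krt6b over Krt17, from 2.92 to 6.29, overlapped between genotypes.

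**Figure D4:**
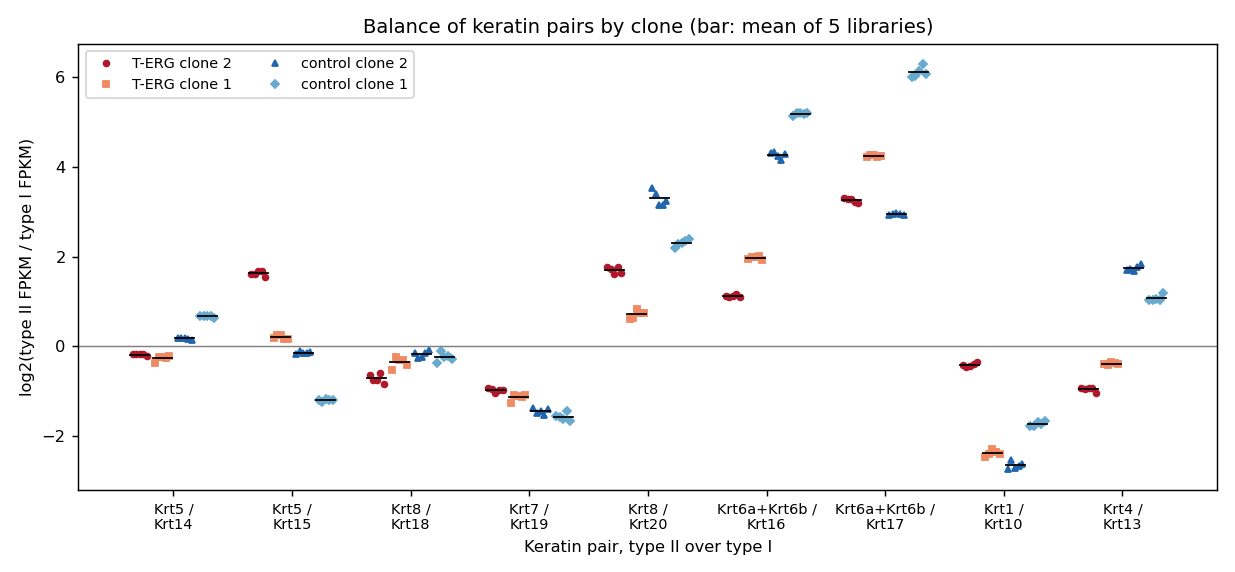
Balance of 9 keratin pairs, log2 of type II FPKM over type I FPKM (vertical axis), 1 point per library and a bar at the mean of the 5 libraries of each clone. Krt5/Krt14 and Krt4/Krt13 are below 0 in all T-ERG libraries and above 0 in all control libraries, and Krt7/Krt19 and Krt8/Krt18 vary least.

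Along the chromosomes, neighbours did not share a sign throughout. On chromosome 11 the stretch Krt36, Krt13, Krt15, Krt19, Krt14, Krt16 and Krt17, with the untested Krt9 after Krt19, had differences of 2.14, 1.15, -0.96, -1.10, 1.27, 4.15 and 1.74. Krt13 and Krt15 are 10.2 kb apart and differ in sign, and Krt15 and Krt19 are 4.86 kb apart and share it. On chromosome 15, Krt6b, Krt6a and Krt5 are consecutive and were all higher in T-ERG, at 3.95, 0.75 and 0.62. Krt4, Krt79, Krt78, Krt8 and Krt18 close the cluster, and 4 of these 5 differences were below 0.

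**Figure D5:**
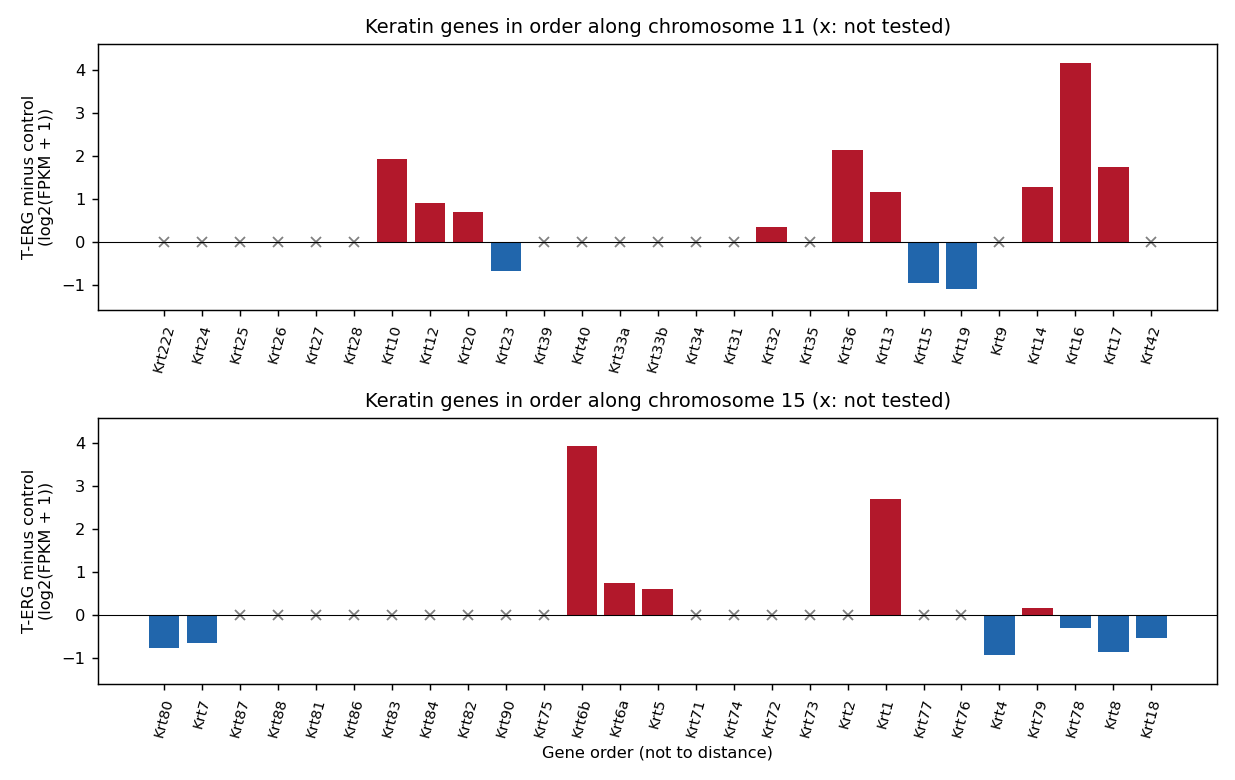
Genotype difference, T-ERG minus control on the log2(FPKM + 1) scale (vertical axis), of keratin genes in their order on chromosome 11 (top) and chromosome 15 (bottom), not to distance; red bars are higher in T-ERG, blue bars lower, and a cross marks a gene that was not tested. The 2 lower genes Krt15 and Krt19 sit between the higher genes Krt13 and Krt14.

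Genes that act with keratins were read from lists. Of 12 tested linker and plaque genes, which tie keratin filaments to desmosomes and other structures, 0 passed in either direction, and 2 had clone means apart above control and 3 below, near the 21.7% and 23.2% of all genes. The largest difference was that of Tchp, which encodes a keratin-binding protein, at 2.83 to 11.1 FPKM in T-ERG and 6.03 to 12.8 FPKM in control (-0.46 ± 0.21, limma adjusted p = 0.574). Of 16 tested transcription factors known to act on keratin genes, 0 passed, and 8 had clone means apart above control and 2 below, against the same 21.7% and 23.2%. Fosl1, an AP-1 subunit, had the largest difference, at 6.46 to 21.7 FPKM in T-ERG and 1.53 to 9.83 FPKM in control (1.37 ± 0.71, limma adjusted p = 0.577). The genotypes overlapped for Fosl1, and it rose in clone 2 of both, by 1.13 in T-ERG and 1.76 in control. Tfap2c, Cebpb and Tfap2a, named after their values were seen, were the 3 factors for which every T-ERG library exceeded every control library (2.50% of all genes). Of 14 other intermediate filament genes, 5 were tested and 0 passed, with Lmnb1, a nuclear lamin, furthest apart at 0.53 ± 0.42 (limma adjusted p = 0.664), and Vim, the filament gene of mesenchymal cells, was at most 1.68 FPKM.

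Markers of cell types and of division were summed in the same libraries. The 7 luminal markers summed to 470 to 664 FPKM in T-ERG and 768 to 812 FPKM in control, and 5 of the 6 tested had both T-ERG clone means below control, against 23.2% of all genes. Foxa1, a luminal transcription factor, had the largest difference of them, -0.99 ± 0.27 (limma adjusted p = 0.574). The 6 basal markers summed to 1063 to 1283 FPKM in T-ERG and 1117 to 1555 FPKM in control, which overlap. The 3 proliferation genes summed to 254 FPKM in T-ERG clone 2 and 147 in T-ERG clone 1. In control they summed to 154 FPKM in clone 2 and 80.3 in clone 1. This was the order of clones for Krt17, but not for Krt16, Krt6a or Krt6b. The part of these markers in the keratin differences was not tested.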

How the data were processed

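RNA was measured in 20 libraries. The authors deposited 1 table of log2 values, log2(FPKM + 1), and 100% of its cells turn back into whole hundredths of an FPKM (tolerance 0.001). RSEM 1.3.0, DESeq2 and build mm10 are named per the submitters' processing notes. The aligner, the annotation and the step each tool served are details not given in the sources used here. FPKM carries no read counts, so absolute depth is unknown and no counting intervals are given; the estimated relative depth differed by at most 1.41 times. Because 2 T-ERG columns share 1 header number, they carry the names unnumbered library a and unnumbered library b, and both are of clone 2 by elimination.

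Genes with at least 1 FPKM in at least 5 libraries (12899) were fitted with limma 3.58.1 in R 4.3.3 (empirical Bayes, intensity trend, two-sided, Benjamini-Hochberg over all tested genes, threshold 0.05). T-ERG was set against control on 4 clone means, since genotype differs only between clones, and clone 2 against clone 1 on single libraries in 1 fit of 20. Differences understate the change of low genes. Sums, shares and pair balances were described without a test. Most members with a clone mean of at least 10 FPKM are described in full. Krt78, Krt80, Krt32 and Krt36 also reach it but are given by range, like the other tested members. Of other lists the member with the largest difference is described. Members, pairs and lists were chosen with earlier results of these data known. Krt85 and Eppk1 were not analysed here. Promoters and coordinates are from RefSeq on GRCm38.p6, where all 54 symbols matched; 36 had a promoter entry, and 29 of these adjoined the gene's start. Alternatives were pseudocounts of 0.1 and 5, filters, scalings, replicate blocks and leaving out clones or libraries.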

Additional observations from a re-analysis of the deposited data

Results flagged for a closer look

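Within each clone, the 5 libraries were screened for 1 that stood apart, meaning that its gap to the nearest other library was over 0.71 of the range (Dixon's test). Of 136 groups of 5, covering keratins and pair balances, 11 were marked, and chance marks about 1 in 20 groups.

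In T-ERG clone 2, dome 5 was low for Krt4, at 1128 FPKM against 1187 to 1207 in the others, and for the Krt5/Krt14 balance, at -0.22 against -0.18 to -0.17. Unnumbered library a was high for Krt7, at 1039 FPKM against 918 to 950, and unnumbered library b was low for Krt20, at 16.6 FPKM against 17.9 to 18.4. In T-ERG clone 1, dome 5 was high for Krt16, at 1624 FPKM against 1518 to 1540, and for Krt78, at 67.03 FPKM against 54.1 to 57.8. Dome 1 was low for Krt6b, at 688 FPKM against 730 to 746, and for the Krt7/Krt19 balance, at -1.27 against -1.13 to -1.08. In control clone 2, dome 4 was low for Krt5, at 5765 FPKM against 5854 to 5874. In control clone 1, dome 5 had a Krt5/Krt14 balance of 0.63 against 0.67 to 0.68 and a Krt4/Krt13 balance of 1.19 against 1.03 to 1.06. Libraries numbered dome 5 held 6 of the 11 marks, but these are separate domes of different clones, and no label links the numbers. Leaving out dome 5 of T-ERG clone 1 took the Krt78 difference between the T-ERG clones to -0.13, against -0.18 with it.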

How the results depend on the processing

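In the genotype comparison, 0 keratins and 0 genes passed limma with clone means under each filter, pseudocount and scaling, with any 1 clone left out (the lone clone is then assumed to vary like the others), and with the clone number as a replicate block (0 genes higher, 0 lower). The block raised the genes at an unadjusted p under 0.05 to 2142, against 1089. Same-numbered clones correlated at 0.168 in their deviations, but 2 pairs are too few to show that the numbers pair them, and the labels do not say so. With the clone as a random block, 11 keratins passed higher and 4 lower, among 674 and 724 genes. With all 20 libraries as independent these were 12 and 6, among 2449 and 2288 genes. Both fits treat domes as replicates to a degree. Left-out clones gave median keratin differences of 0.22 to 0.54, clone means apart below for 6 to 9 keratins and libraries apart below for 4 to 7. Both counts can only stay or rise when a clone is left out. Without a filter, clone means were apart below for 8. Left-out clones turned the sign of 4 members: Krt79 ranged from -0.14 to 0.49, Krt80 from -1.63 to 0.11, Krt78 from -1.15 to 0.54 and Krt32 from -0.99 to 1.66.

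Between T-ERG clones, the median keratin difference was 0.13 and became 0.068 at a mean FPKM of at least 5, 0.084 with median centring and 0.019 with quantile normalization, where Krt14 turned to -0.077. The dome number as a replicate block, on the numbered domes, left 715 genes higher and 655 lower, against 2251 and 1854, with 10 keratins higher and 7 lower. That fit had fewer libraries and also added terms for the dome number. Leaving out only the unnumbered libraries left 1792 genes higher and 1593 lower. The cause of the loss was not tested. Same-numbered domes correlated at -0.007 to 0.059, and no label says that the numbers pair them. The Krt78 call was lost in 11 alternatives.

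Between control clones, the median was -0.13 and became -0.31 with a pseudocount of 0.1, -0.31 at a mean FPKM of at least 5 and -0.22 with median centring, and -0.23 to -0.10 with 1 library left out. Uncalled signs turned for Krt7 (-0.082) and Krt23 (-0.087) with median centring and for Krt79 (-0.046) and Krt23 (-0.15) with quantile normalization, and the called Krt19 turned to 0.10. With 1 library left out Krt7 ranged from -0.024 to 0.058 and Krt23 from -0.090 to 0.106. The cause of these changes was not tested.

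The T-ERG keratin share was 5.80% from back-transformed means and 4.88% without Krt6a and Krt6b. Leaving out these type II genes lowers the share and raises the type I to type II ratio by construction. The ratio was then 1.98 in T-ERG and 1.80 in control. Left-out clones gave shares of 5.74% to 5.77% in T-ERG and 4.17% to 5.63% in control.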
